A study of Homo sapiens with 8 samples.

Results

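The Kruppel-like factor (KLF) genes described here are KLF2, KLF3, KLF4, KLF5, KLF6, KLF7, KLF9, KLF10, KLF11 and KLF13, which were taken by symbol from the 38148 genes of the expression table and all 10 of which had a row. The samples were HT29 cells, an established human colorectal cancer line, either untreated or exposed to 1 μM selumetinib, an inhibitor of the kinases MEK1 and MEK2, for 24 h. After glyoxal fixation, cells were stained for the protein cyclin B1 (CCNB1), which accumulates as cells pass through G2, and were divided by flow sorting into a CCNB1-negative and a CCNB1-positive fraction, from which mRNA-seq libraries were made after poly(A) selection. Both fractions of both treatments gave 4 groups of 2 libraries each. The labels do not state whether the libraries of a group came from separate cultures, so p-values measure the spread between these libraries.

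KLF proteins are transcription factors that bind GC-rich and CACCC-containing DNA through zinc fingers at their C-terminal end, and they differ in the partners recruited by the rest of the protein. KLF2, KLF4, KLF5, KLF6 and KLF7 are usually described as activators that work with acetyltransferases, KLF3 recruits the corepressor CtBP, and KLF9, KLF10, KLF11 and KLF13 recruit SIN3 and its histone deacetylases. In the gut, KLF5 is known from proliferating crypt cells and KLF4 from differentiated cells nearer the lumen, while KLF2 and KLF6 are known as genes that respond rapidly to signals.

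The comparisons asked how these genes responded to MEK inhibition in each fraction, and whether they differed between the fractions. Reads on genes numbered 12696860 to 23916160 per library, and the 14219 genes whose mean reached 1 RPM (the reads of a gene scaled to the depth of its library) were tested by limma with Benjamini-Hochberg adjustment over all of them. The title and the description of every library disagree on both its drug treatment and its fraction. Groups here follow the descriptions, which match the column names of the table, and going by the titles would swap the responses of the fractions and reverse their signs, and likewise swap and reverse the fraction differences of the treatments. By the titles, CCNB1 mRNA would be higher in the CCNB1-negative fraction of both treatments, and ETV4, ETV5 and DUSP6, outputs of MEK signalling, would be higher under the inhibitor, while by the descriptions both run the other way. CCNB1 mRNA, the check of the sort, was 4.25-fold (95% interval 3.11 to 5.80) higher in CCNB1-positive than in CCNB1-negative untreated cells and 33.8-fold (24.7 to 46.2) higher in treated cells. Several features of whole libraries moved with treatment: mitochondrial genes took 4.44 to 7.80% of reads in untreated and 11.9 to 14.8% in treated libraries, MALAT1 took 0.303 to 0.386% and 2.01 to 4.42%, and the 8 colon epithelial markers summed to 9932 to 11017 RPM and 4580 to 8250 RPM, with all 8 detected. That sum was led by KRT8. Marker by marker, 2 rose and 3 fell in CCNB1-negative cells, where 38.2% of all genes rose and 35.8% fell. In CCNB1-positive cells 3 rose and 1 fell, beside 38.0% and 27.3% of all genes. CDX1, among those that rose there, lay below the filter in untreated CCNB1-positive libraries. The 7 fibroblast markers, led by COL1A1, summed to 1.32 to 1.63 RPM in untreated and 2.60 to 8.26 RPM in treated libraries, the 5 endothelial markers to 1.36 to 3.94 RPM over all 8 libraries, and the 6 immune markers to 918 to 1090 RPM in untreated and 349 to 722 RPM in treated libraries. Nearly all of the last sum was LYZ, which fell by 1.35 and 0.73 on the log2 scale, and the other 5 immune markers summed to 5.91 to 12.5 RPM. The part of these shifts in the changes below was not tested. In bulk samples, fewer cells of a type and less RNA per cell cannot be told apart.

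The upstream DNA is shown for KLF2, KLF6 and KLF13, because these 3 of the 10 genes changed by at least 2-fold in both fractions. The sequences are from RefSeq on GRCh38.p14, 5′ to 3′ on the gene's strand, cover up to 250 bases before the first transcribed base and leave out bases inside the gene. They are chr19:16324576-16324816 on the plus strand for KLF2, chr10:3785282-3785459 on the minus strand for KLF6 and chr15:31326585-31326834 on the plus strand for KLF13. Capitals mark a MEF2 motif in KLF2 and a CACCC motif in KLF13.
KLF2: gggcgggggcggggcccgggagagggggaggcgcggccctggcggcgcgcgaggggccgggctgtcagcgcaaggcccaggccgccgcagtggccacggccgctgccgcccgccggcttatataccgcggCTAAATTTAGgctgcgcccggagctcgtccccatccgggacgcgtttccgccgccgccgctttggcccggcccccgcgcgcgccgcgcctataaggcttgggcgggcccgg
KLF6: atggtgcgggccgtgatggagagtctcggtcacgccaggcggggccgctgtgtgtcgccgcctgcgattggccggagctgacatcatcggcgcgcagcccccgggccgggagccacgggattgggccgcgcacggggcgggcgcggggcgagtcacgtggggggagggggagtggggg
KLF13: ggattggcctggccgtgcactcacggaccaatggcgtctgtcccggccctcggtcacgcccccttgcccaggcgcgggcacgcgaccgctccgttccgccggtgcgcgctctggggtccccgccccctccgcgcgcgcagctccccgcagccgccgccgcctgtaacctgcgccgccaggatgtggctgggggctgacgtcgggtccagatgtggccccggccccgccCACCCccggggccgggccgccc
All 3 stretches were GC-rich, at 79.3% for KLF2, 76.4% for KLF6 and 78.8% for KLF13, against a median of 58% for the 250 upstream bases of all 35116 promoter entries. Of the 10 genes, 8 had 13 entries between them, and KLF3 and KLF10 had none. Windows of 300 bases were searched on both strands for CACCC, the core letters of KLF sites, for CCGGAAG, a motif of ETS factors, and for a MEF2 motif and a serum response element by name. CACCC lay in 7 of the 13 entries, from 4 genes, and in 59.9% of all entries, and CCGGAAG lay in 0 of 13 and in 10.3%. The MEF2 motif of KLF2, 10 bases long with its first base at position -120, was the only match among the 13 entries, where 0.572% of all entries had one. A serum response element was found in 1 entry, of KLF7, with its first base at position -62, and in 1.29% of all entries. The KLF6 stretch held none of these 4 motifs.

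Selumetinib changed most of the KLF genes in both fractions, with rises and falls side by side. KLF2, KLF3 and KLF6 rose in both fractions, KLF10 and KLF13 fell in both, KLF4 passed the test as higher only among CCNB1-positive cells and KLF11 as lower only among CCNB1-negative cells. KLF5, the KLF gene with the highest level per length, passed in neither. In all, 8 of the 10 genes passed the filter on low values, and KLF7 and KLF9 did not. Of these 8, 6 were called in CCNB1-negative cells (3 higher, 3 lower), where 74.1% of all genes tested were called (38.2% higher, 35.8% lower), and 6 in CCNB1-positive cells (4 higher, 2 lower), where 65.3% were called (38.0% higher, 27.3% lower). Treated and untreated libraries did not overlap for 8 and 7 of the 8 genes, as for 86.4% and 85.8% of all genes. The 3 genes higher in both fractions and the 2 lower in both stand beside 33.3% and 26.0% of all genes. The share of KLF genes called was thus near that of all genes. The median log2 change of the 8 was 0.00 among CCNB1-negative cells and 0.35 among CCNB1-positive ones, beside 0.05 and 0.17 for all genes tested. Those all-gene medians moved with the scaling, from -0.08 to 0.19 and from -0.07 to 0.27.

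**Figure D1:**
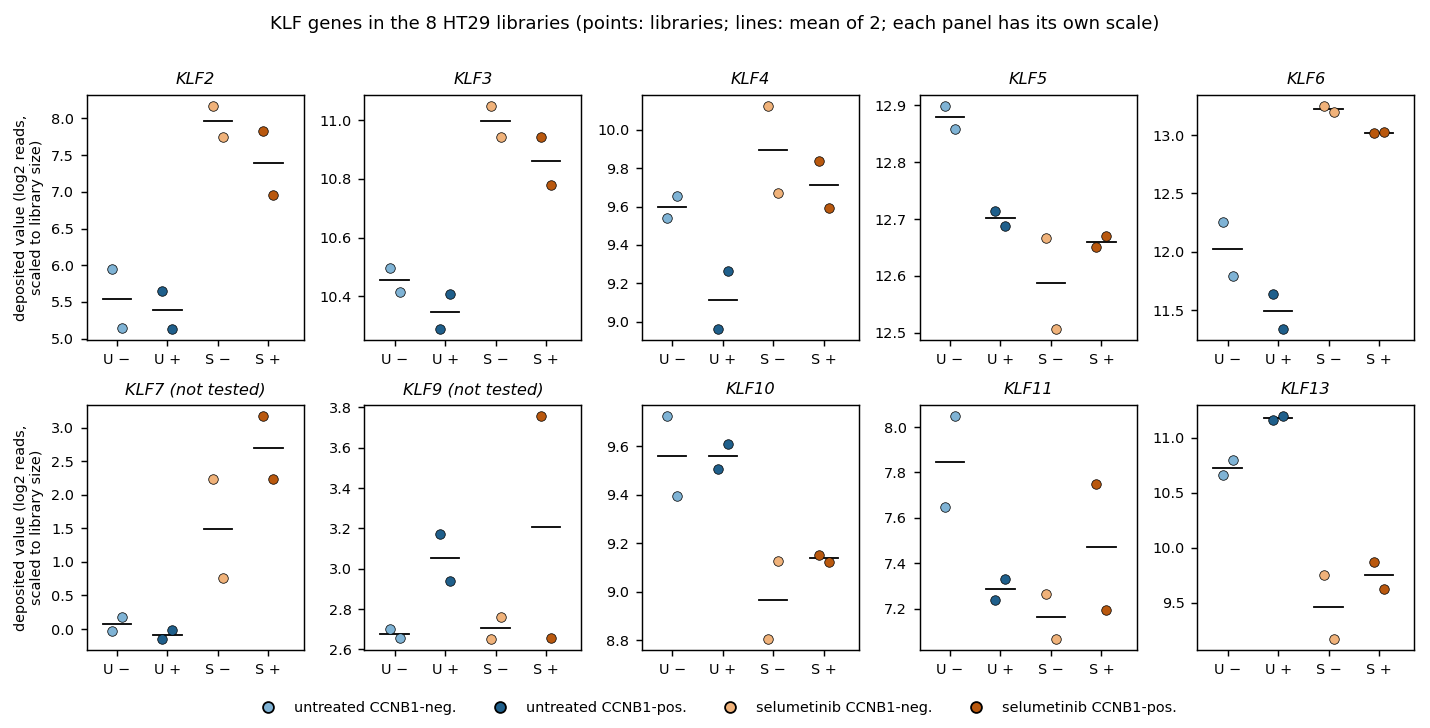
Deposited log2 values (reads scaled to library size, vertical axes, each panel with its own range) of the 10 KLF genes in the 8 libraries, by group (U, untreated; S, selumetinib; minus and plus, CCNB1-negative and CCNB1-positive), with a line at each group's mean of 2. All 4 treated libraries lie above all 4 untreated ones for KLF2, KLF3 and KLF6 and below them for KLF10 and KLF13, and KLF7 and KLF9 were too low to be tested. The share of all genes separated in this way over both fractions was not counted. Within the CCNB1-negative and CCNB1-positive fractions, treated and untreated libraries did not overlap for 86.4% and 85.8% of all genes.

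Among the activators, KLF2 (ENSG00000127528, chromosome 19, 16324817 to 16327874 of GRCh38), a zinc finger factor best known from endothelial cells and resting lymphocytes, rose in both fractions. It had 57 and 28 reads in untreated CCNB1-negative, 50 and 32 in untreated CCNB1-positive, 183 and 127 in treated CCNB1-negative and 202 and 79 in treated CCNB1-positive libraries. On the deposited log2 scale these were 5.95 and 5.14, 5.64 and 5.13, 8.17 and 7.75, and 7.83 and 6.96. No treated library overlapped an untreated one. The rise was 5.33-fold (95% interval 3.12 to 9.11, adjusted p = 3.4e-05) in CCNB1-negative and 4.02-fold (2.35 to 6.87, adjusted p = 2.7e-04) in CCNB1-positive cells. Replicates of KLF2 were spread widely, with an SD of 0.29 to 0.61 (log2, n = 2) within groups. Endothelial markers, the defining markers of a cell type rich in KLF2, stayed at or below 3.94 RPM in sum, beside 1.45 to 13.1 RPM for KLF2 itself. These ranges overlap. The samples were cells of the HT29 line, with no endothelial cells in the design, and the source of the KLF2 reads was not tested.

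KLF6 (ENSG00000067082, chromosome 10, 3775996 to 3785281), a widely expressed factor described as a growth suppressor, rose from already high levels. Its log2 values were 12.26 and 11.79 in untreated CCNB1-negative, 11.64 and 11.34 in untreated CCNB1-positive, 13.25 and 13.19 in treated CCNB1-negative and 13.01 and 13.02 in treated CCNB1-positive libraries. The treated libraries lay close together and above every untreated one, and the untreated ones were spread more widely. The rise was 2.29-fold (1.77 to 2.97, adjusted p = 2.8e-05) in CCNB1-negative and 2.88-fold (2.22 to 3.74, adjusted p = 6.7e-06) in CCNB1-positive cells. Measured against the all-gene median under the main, quantile, median-of-ratios and voom scalings, the log2 rise of KLF6 was 1.15 to 1.72 and 1.36 to 1.96, and that of KLF2 was 1.86 to 2.36 and 1.03 to 1.87.

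KLF4 (ENSG00000136826, chromosome 9, 107484852 to 107490482), the factor of differentiated gut epithelium, gave smaller differences. Its log2 values were 9.54 and 9.66 in untreated and 10.12 and 9.67 in treated CCNB1-negative cells, and 8.96 and 9.26 in untreated and 9.84 and 9.59 in treated CCNB1-positive cells. Within each fraction the treated libraries were the higher ones, though the nearest pair in CCNB1-negative cells nearly touched. In CCNB1-positive cells KLF4 rose 1.52-fold (1.15 to 1.99, adjusted p = 0.011), and in CCNB1-negative cells the ratio was 1.23 (0.934 to 1.61, adjusted p = 0.16). The responses of the fractions differed by 0.31 on the log2 scale (-0.25 to 0.86, adjusted p = 0.54), so a difference between them was not shown. The call in CCNB1-positive cells was lost without replicate 1 of either CCNB1-positive group (adjusted p up to 0.10), and in CCNB1-negative cells voom on recovered reads called a rise (adjusted p = 0.035). A long non-coding RNA without a row in the table overlaps KLF4 on the opposite strand over 357 exon bases.

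KLF5 (ENSG00000102554, chromosome 13, 73054976 to 73077541), the crypt factor, was the most even of the tested genes. Its log2 values were 12.90 and 12.86, 12.71 and 12.69, 12.67 and 12.51, and 12.65 and 12.67 in the same order of groups, so that all 8 libraries lay within a narrow band. The ratio of treated to untreated was 0.817 (0.658 to 1.01, adjusted p = 0.083) in CCNB1-negative and 0.972 (0.783 to 1.21, adjusted p = 0.81) in CCNB1-positive cells. These intervals leave room for a fall of 1.52-fold in the first and of 1.28-fold in the second. The direction rested on the scaling: under quantile normalization the log2 changes were 0.16 (adjusted p = 0.32) and 0.39 (adjusted p = 0.030), and with voom the second was 0.06. KLF7 (ENSG00000118263, chromosome 2, 207074137 to 207167267), a factor known mainly from neurons, had 0 reads in each untreated library, 3 and 1 in treated CCNB1-negative cells and 8 and 3 in treated CCNB1-positive cells. Counted over the group, 0 reads allow up to 3. The 11 reads of the treated CCNB1-positive libraries (0.323 RPM) were 4.94-fold above that limit. The counting error of the 11 reads is not in this ratio. Since KLF7 had reads only in treated libraries, its untreated log2 values are the value given to 0 reads, which differs with depth. No test of KLF7 is used.

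KLF3 (ENSG00000109787, chromosome 4, 38664197 to 38701517), the CtBP-recruiting repressor, had log2 values of 10.50 and 10.42, 10.29 and 10.41, 11.05 and 10.94, and 10.94 and 10.78 in the 4 groups. The rise was small, and all treated libraries lay above all untreated ones. It was 1.45-fold (1.18 to 1.79, adjusted p = 0.0033) in CCNB1-negative and 1.43-fold (1.16 to 1.76, adjusted p = 0.0056) in CCNB1-positive cells, and the second was lost without replicate 1 of the untreated or treated CCNB1-positive group (adjusted p up to 0.062). The library kit kept strand, and whether the counts of this table used it is not stated. KLF3-AS1 on the opposite strand shares 265 exon bases with KLF3, so reads of the pair may be mixed if strand was not used.

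The SIN3-recruiting genes went the other way or showed no call. KLF13 (ENSG00000169926, chromosome 15, 31326835 to 31435665), a factor known from lymphocytes and heart, fell in both fractions. Its log2 values were 10.66 and 10.80 in untreated CCNB1-negative, 11.16 and 11.19 in untreated CCNB1-positive, 9.75 and 9.17 in treated CCNB1-negative and 9.87 and 9.63 in treated CCNB1-positive libraries. Every treated library was below every untreated one. The fall was 2.41-fold (1.84 to 3.17, adjusted p = 2.5e-05) in CCNB1-negative and 2.70-fold (2.05 to 3.54, adjusted p = 1.7e-05) in CCNB1-positive cells, and adjusted p stayed at or below 3.4e-04 without any 1 library. KLF10 (ENSG00000155090, chromosome 8), a gene first known for its induction by TGF-beta, had log2 values of 9.72 and 9.40, 9.51 and 9.61, 8.80 and 9.13, and 9.15 and 9.12. It fell 1.51-fold (1.17 to 1.95, adjusted p = 0.0065) in CCNB1-negative cells and 1.34-fold (1.04 to 1.73, adjusted p = 0.045) in CCNB1-positive cells. The second value lies at the threshold, with an adjusted p of 0.11 by voom, and was lost without any 1 of the CCNB1-positive libraries (adjusted p up to 0.19), while the first was lost without replicate 1 of the untreated or treated CCNB1-negative group (adjusted p up to 0.085).

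KLF11 (ENSG00000172059, chromosome 2, 10042849 to 10054836), the closest relative of KLF10 and likewise tied to TGF-beta, had log2 values of 7.65 and 8.05 in untreated and 7.26 and 7.07 in treated CCNB1-negative cells, and 7.24 and 7.33 in untreated and 7.75 and 7.19 in treated CCNB1-positive cells. The groups did not overlap in the first pair and overlapped in the second. It fell 1.60-fold (1.11 to 2.31, adjusted p = 0.022) in CCNB1-negative cells, a call lost with voom (adjusted p = 0.071) and without replicate 2 of either CCNB1-negative group (adjusted p up to 0.18). In CCNB1-positive cells the ratio was 1.14 (0.790 to 1.64, adjusted p = 0.52), and replicate 1 of the treated group set its direction, which was -0.090 on the log2 scale without it. KLF9 (ENSG00000119138, chromosome 9, 70384597 to 70414624), a glucocorticoid-responsive gene, was near the limit of detection, with 4 to 12 reads and 0.262 to 0.601 RPM over the 8 libraries, and was not tested.

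**Figure D2:**
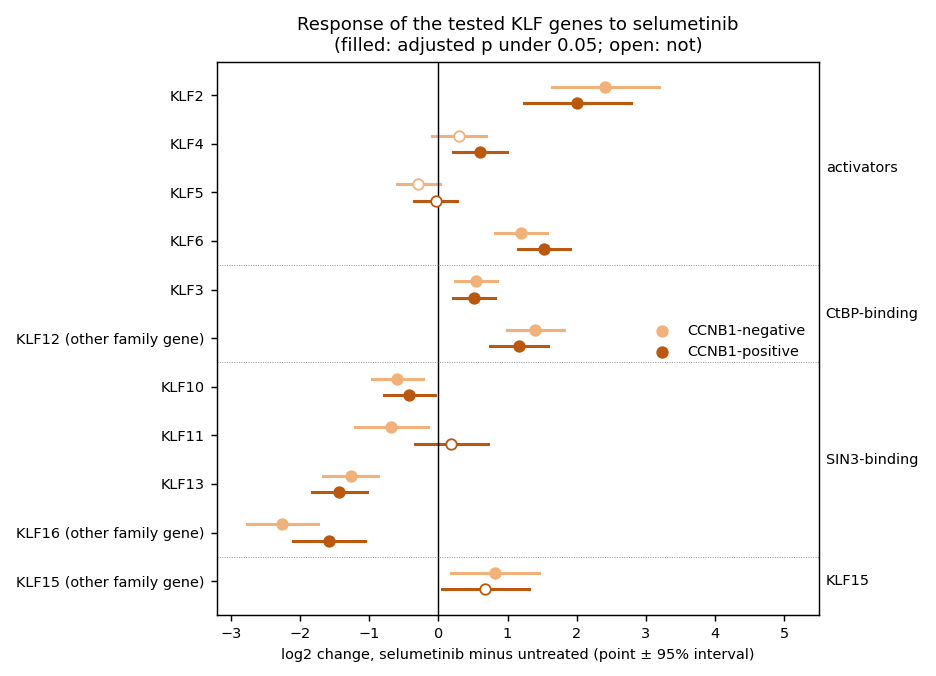
Log2 change (selumetinib minus untreated, horizontal axis) of 11 tested genes of the KLF family with 95% intervals from limma, grouped by the partner class of the protein, with filled points for an adjusted p under 0.05. KLF3 and KLF12 lie right of 0 in both fractions and the SIN3-binding genes left of 0, except KLF11 in CCNB1-positive cells.

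The rest of the family was grouped by partner class, from textbook knowledge and with these values known, so that the counts are a description only. Of the 8 other KLF genes, 4 passed the filter, and KLF1 and KLF14 had no reads in any library. KLF8, a CtBP-binding repressor, had 8 to 18 reads per untreated library and 59 to 116 per treated library, and since it passed the filter only through the treated groups its test is not used. KLF12, of the same class, rose by 1.40 on the log2 scale among CCNB1-negative cells (adjusted p = 1.6e-05) and by 1.17 among CCNB1-positive ones (adjusted p = 1.4e-04). KLF16, which binds SIN3, fell by 2.26 (adjusted p = 1.5e-06) and 1.58 (adjusted p = 7.0e-05). KLF3 and KLF12 were thus higher in both fractions. All of KLF10, KLF11, KLF13 and KLF16 were lower in CCNB1-negative cells, where 35.8% of all genes tested were, and all but KLF11 in CCNB1-positive cells, against 27.3%. Of the activators, KLF2 and KLF6 were higher in both fractions and KLF4 in CCNB1-positive cells, against 38.2% and 38.0% of all genes. KLF15, known from liver and muscle metabolism and put in no class here, rose by 0.82 in CCNB1-negative cells (adjusted p = 0.022) and gave 0.68 in CCNB1-positive cells (adjusted p = 0.056).

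Levels between genes were compared per length, as RPKM, that is RPM divided by the length in kb of the gene's GENCODE 44 exons. Whether the deposited counts cover exons or whole genes is not stated for this table, so the order is that of reads over exon length. KLF5 was first in all 4 groups, at 85.6 ± 2.4 RPKM (SD, n = 2) in untreated CCNB1-negative, 75.3 ± 1.5 in untreated CCNB1-positive, 77.0 ± 5.0 in treated CCNB1-negative and 78.7 ± 1.4 in treated CCNB1-positive cells. KLF6 came next among the 10 genes, at 28.7 ± 6.8, 19.6 ± 3.0, 71.5 ± 0.86 and 60.5 ± 0.73 RPKM in the same order. The ratio of KLF6 to KLF5 within a library cannot be altered by a constant scaling factor for each library, though quantile normalization can alter it. In the deposited values the ratio was 0.236 to 0.384 in the 4 untreated and 0.765 to 0.965 in the 4 treated libraries, without overlap. With 2 libraries a group, an exact permutation test of this ratio within a fraction could not reach the threshold, and none was made.

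Below these, KLF4, KLF3, KLF10 and KLF13 lay between 7.52 and 8.86 RPKM on average in untreated CCNB1-negative cells, and each neighbour in that order overlapped the next. In untreated CCNB1-positive cells KLF13 led this set at 10.2 ± 0.10 RPKM and KLF4 was last at 6.33 ± 0.89. In treated cells the order was KLF3, KLF4, KLF10 and KLF13 in both fractions, with KLF3 at 13.9 ± 0.51 and KLF13 at 3.50 ± 0.94 RPKM in CCNB1-negative cells and at 12.3 ± 0.89 and 4.09 ± 0.45 in CCNB1-positive cells. KLF2 moved from 0.720 ± 0.28 and 0.628 ± 0.16 RPKM in untreated to 4.09 ± 0.77 and 2.79 ± 1.1 in treated cells, where it overlapped KLF13 in CCNB1-negative cells. KLF11 stayed between 1.41 and 2.11 RPKM on average in the 4 groups. The sum over all 18 KLF genes listed was 152 to 183 RPKM in untreated and 191 to 211 RPKM in treated libraries, of which KLF5 made up 47.7 to 51.7% and 37.3 to 41.7%, and KLF6 11.6 to 18.3% and 31.1 to 36.0%.

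**Figure D3:**
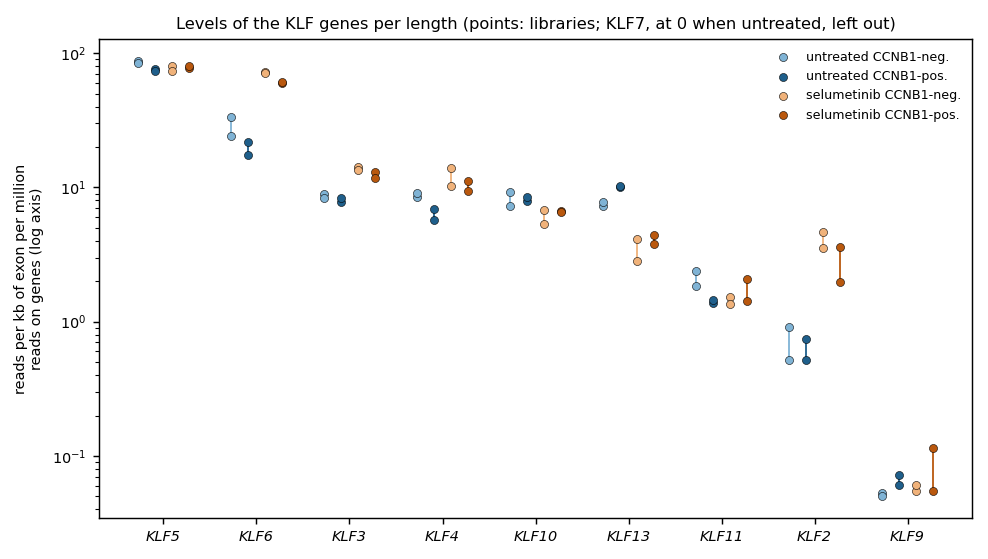
Level of 9 KLF genes in each library as RPKM (vertical log axis), coloured by group, with a line joining the libraries of a group. KLF5 lies at the top in every group, and KLF6 comes up to near its level in the treated libraries, while KLF9 lies below all others and KLF7, with 0 reads in untreated libraries, is left out.

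Between the fractions no KLF gene passed the test without a replicate block. With a block for each pair of fractions, 4 of 8 passed in untreated cells, where 1923 of all 14219 genes did. That block gave 1 of 8 in treated cells (6671 genes) and 1 of 8 in the difference of responses (3850 genes). The labels do not say that a replicate number marks a shared culture. By limma without a replicate block, 0 of 8 passed in untreated cells (2.87% of all genes), 0 of 8 in treated cells (21.6%, of which 13.8% were higher in the CCNB1-positive fraction and 7.87% lower) and 0 of 8 in the test of whether the responses of the fractions differed (5.33%), and voom gave 0 in each as well. At an unadjusted p under 0.05 the counts were 4, 0 and 1. The 4 in untreated cells were KLF6, with a log2 difference (CCNB1-positive minus CCNB1-negative) of -0.53 (-0.91 to -0.16, unadjusted p = 0.0089, adjusted p = 0.15), KLF4 with -0.49 (-0.88 to -0.09, adjusted p = 0.23), KLF11 with -0.56 (-1.09 to -0.04, adjusted p = 0.33) and KLF13 with 0.45 (0.06 to 0.84, adjusted p = 0.28). The untreated fractions did not overlap for 6 of the 8 genes, these 4, KLF3 and KLF5, and for 44.3% of all genes. In treated cells, where the fractions did not overlap for 1 of 8 genes, KLF6, and for 63.9% of all genes, the log2 differences were -0.20 (-0.58 to 0.17) for KLF6, -0.18 (-0.58 to 0.21) for KLF4, 0.31 (-0.22 to 0.83) for KLF11 and 0.29 (-0.10 to 0.68) for KLF13, and KLF13 was called without replicate 1 of the treated CCNB1-negative group (0.58, adjusted p = 0.021).

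The intervals bound what could have been missed. For KLF3 the log2 difference between fractions was -0.11 (-0.41 to 0.19) in untreated and -0.13 (-0.44 to 0.17) in treated cells, and for KLF5 it was -0.18 (-0.49 to 0.13) and 0.07 (-0.24 to 0.38). KLF2 was least well bounded, at -0.16 (-0.93 to 0.62) and -0.56 (-1.34 to 0.21). KLF11 gave the largest difference of responses, 0.87 on the log2 scale (0.12 to 1.61, unadjusted p = 0.025, adjusted p = 0.18), its values being lowered in CCNB1-negative cells and not in CCNB1-positive cells. Among the other KLF genes, KLF16 was 2.01-fold (1.40 to 2.87, adjusted p = 0.010) higher in the CCNB1-positive than in the CCNB1-negative fraction under selumetinib.

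**Figure D4:**
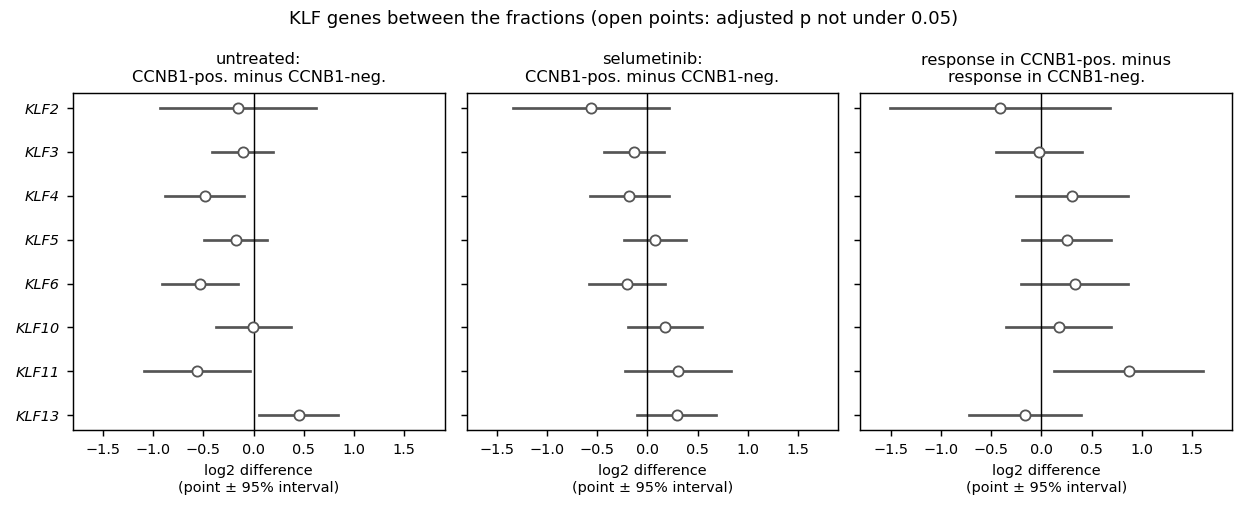
Log2 differences of the 8 tested KLF genes with 95% intervals from limma, CCNB1-positive minus CCNB1-negative in untreated cells (left) and in selumetinib-treated cells (middle), and the difference of the selumetinib responses of the fractions (right). All points are open because none had an adjusted p under 0.05 in this fit, which had no replicate block. KLF11 lies furthest from 0 in the right panel.

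KLF4 and KLF5, the gut epithelial pair, were each compared with other tested genes by Pearson correlation of the log2 values over the 8 libraries. This is a description, since the points share depth and treatment. The genes named leave out the other KLF genes described and symbols that start with AC, AL, AP, LINC, ENSG or RP before a digit. The counts over 0.95 cover all tested genes. Most like KLF4 were C9orf116 (r = 0.980), BBS2 (r = 0.976) and TBC1D23 (r = 0.970), and 12 genes were over 0.95. Most like KLF5 were PHF13 (r = 0.985), CREBZF (r = 0.978) and the readthrough gene CCL15-CCL14 (r = 0.973), and 18 genes were over 0.95. The KLF5 pattern they follow is highest in untreated CCNB1-negative cells, as for CREBZF with 11.29 and 11.30 there against 10.20 to 10.90 in the other 6 libraries. KLF5 itself ran only from 12.51 to 12.90, and the correlation takes no account of the size of a change. The direction of its selumetinib response rested on the scaling, so these likenesses are of small differences in the deposited values.

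Genes around the KLF proteins were followed by lists chosen with earlier results of these data known. As a base for the counts, 38.2% of all genes rose and 35.8% fell in CCNB1-negative cells. In CCNB1-positive cells 38.0% rose and 27.3% fell. The coactivators of the family moved one way: the acetyltransferases KAT2B, CREBBP and EP300 all rose, 3 of 3 in both fractions (38.2% and 38.0% of all genes did), by 2.21, 1.59 and 0.82 on the log2 scale in CCNB1-negative cells (adjusted p = 6.0e-05, 1.0e-06 and 2.4e-04) and by 1.35, 1.11 and 0.49 among CCNB1-positive ones (adjusted p = 0.0041, 5.3e-05 and 0.011). Of 6 corepressor genes, 1 rose and 3 fell in CCNB1-negative cells and 0 rose and 3 fell in CCNB1-positive cells. The deacetylase genes HDAC2 and HDAC1 fell by 1.39 and 0.95 in the first (adjusted p = 1.1e-05 and 5.9e-05) and by 0.99 and 0.70 in the second (adjusted p = 3.5e-04 and 0.0011), and CTBP2 rose by 0.64 in CCNB1-negative cells (adjusted p = 0.0033). Of the 4 genes for ubiquitin ligase components that act on KLF proteins, VHL fell by 0.85 in CCNB1-negative cells (adjusted p = 6.7e-04). The other 3 rose in both fractions, BTRC with 1.81 and 0.97 (adjusted p = 7.0e-07 and 3.1e-04), FBXW7 with 0.95 and 0.84 (adjusted p = 3.1e-04 and 0.0012) and WWP1, a ligase of KLF5, with 0.87 and 0.47 (adjusted p = 7.1e-05 and 0.0096). The related SP family had 6 tested genes, of which 1 rose and 1 fell in CCNB1-negative cells and 2 rose and 1 fell in CCNB1-positive cells. SP6 fell by 1.41 and 0.65 (adjusted p = 2.6e-04 and 0.045), and SP4 rose by 0.66 and 1.02 (adjusted p = 0.013 and 9.8e-04).

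The known inducers of KLF genes were also listed. KLF2 is known as a target of MEF2 factors, which the kinase ERK5 activates under MEK5, and of this arm 4 of 6 genes rose in both fractions, beside 33.3% of all genes. MEF2C rose by 2.1 and 1.89 (adjusted p = 1.9e-05 and 8.1e-05), MAP2K5, the gene of MEK5, by 2.08 and 1.44 (adjusted p = 1.4e-07 and 9.5e-06) and MEF2D by 1.35 and 0.96 (adjusted p = 3.9e-05 and 9.5e-04). FOXO factors, which also activate KLF2 in lymphocytes, rose 3 of 3 in both fractions, beside the same 33.3%, with FOXO3 at 2.61 and 2.40 (adjusted p = 8.7e-09 and 9.8e-08), FOXO4 at 1.35 and 0.92 (adjusted p = 3.9e-05 and 0.0013) and FOXO1 at 1.07 and 0.42 (adjusted p = 3.6e-05 and 0.034). These are mRNA levels, and ERK5 activity was not measured. Whether MEF2 or FOXO factors acted on KLF2 in these cells was not tested. Of 9 tested genes of the TGF-beta arm of KLF10 and KLF11, 3 rose and 1 fell in CCNB1-negative cells. In CCNB1-positive cells 1 rose and 1 fell. Of all genes, 38.2% rose and 35.8% fell in the first and 38.0% and 27.3% in the second. The ligand gene TGFB1 fell by 0.90 and 0.66 (adjusted p = 0.0031 and 0.022), SMAD4 rose by 0.81 and 0.72 (adjusted p = 6.2e-04 and 0.0021), and the receptor gene TGFBR2 rose by 0.63 in CCNB1-negative cells (adjusted p = 7.5e-04) and gave 0.10 in CCNB1-positive cells (adjusted p = 0.52).

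Of 11 genes that are read as output of MEK and ERK signalling, 10 fell among CCNB1-negative cells and 9 among CCNB1-positive ones. Of all genes, 35.8% and 27.3% fell. ETV4 fell by 3.10 and 2.34 (adjusted p = 8.1e-07 and 2.2e-05), ETV5 fell by 2.95 and 2.02 (adjusted p = 8.8e-07 and 5.3e-05) and DUSP6 fell by 1.75 and 1.06 (adjusted p = 2.2e-06 and 3.3e-04). The exception that rose, EGR1, a rapidly induced zinc finger gene, gained 1.17 and 1.58 (adjusted p = 3.2e-04 and 4.0e-05) and is named here because it stood apart.

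Textbook targets of KLF4 and KLF5 were counted last. Beside the counts, 38.2% of all genes rose and 35.8% fell in CCNB1-negative cells, and 38.0% and 27.3% did in CCNB1-positive cells. The target lists were not split into genes that the factor activates and genes that it represses. Their counts therefore do not show whether targets moved with or against KLF4 or KLF5. Of 5 tested genes of the KLF4 list, 1 rose and 3 fell in CCNB1-negative cells and 2 rose and 3 fell in CCNB1-positive cells. CCNE1 fell by 2.79 and 0.62 (adjusted p = 1.8e-07 and 0.032), ODC1 fell by 2.28 and 2.02 (adjusted p = 2.2e-07 and 2.0e-06), and CDKN1A, the cell cycle inhibitor that KLF4 activates, rose by 1.66 in CCNB1-positive cells (adjusted p = 0.0090) and gave 0.37 in CCNB1-negative cells (adjusted p = 0.51). Replicates of CDKN1A were spread widely in CCNB1-positive cells, at log2 values of 6.07 and 4.99 in untreated and 7.86 and 6.51 in treated libraries. Of 8 genes of the KLF5 list, 1 rose and 5 fell in both fractions, with log2 changes of -4.27 and -1.27 for CCNB1, -4.17 and -1.03 for CDK1 and -3.54 and -0.53 for BIRC5 (adjusted p at or below 0.0060). Those leading genes are cell cycle genes, and CCNB1 is the gene of the sort marker. In treated cells they were higher in the CCNB1-positive than in the CCNB1-negative fraction, by 5.08, 4.74 and 4.27 on the log2 scale. KLF5 itself passed the test in neither fraction. The cause of the falls was not tested.

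**Figure D5:**
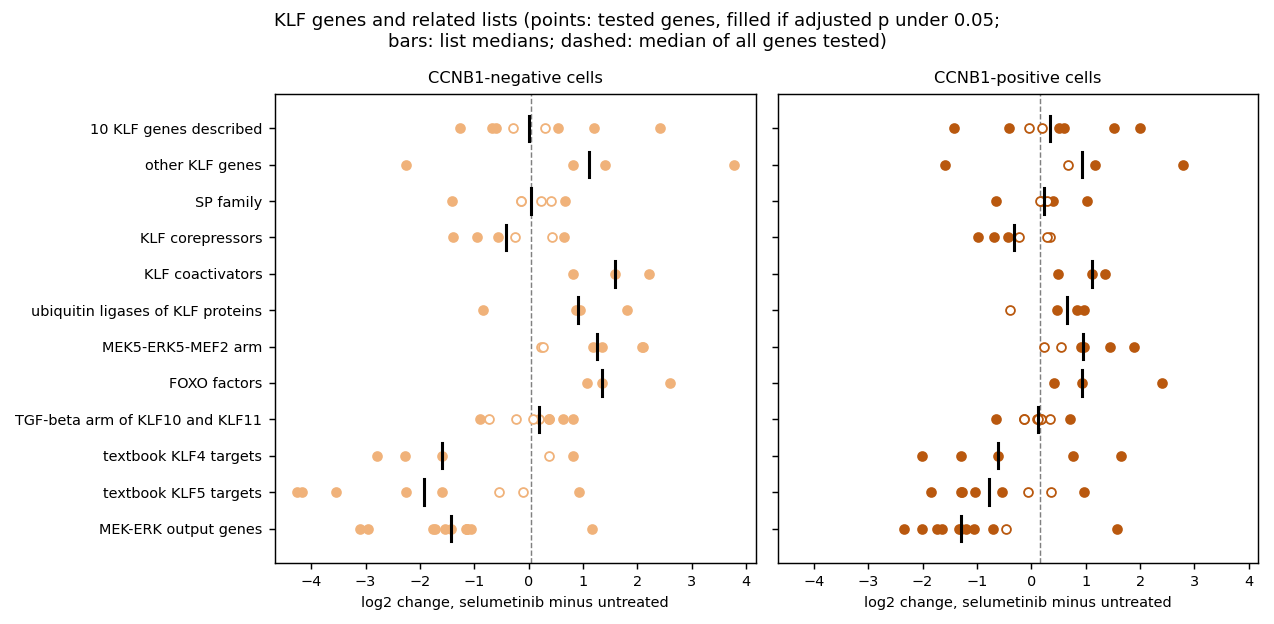
Log2 change (selumetinib minus untreated, horizontal axis) of each tested gene of the KLF lists in CCNB1-negative cells (left) and CCNB1-positive cells (right), filled for an adjusted p under 0.05, with a bar at each list's median and a dashed line at the median of all genes tested (0.05 and 0.17). The rightmost of the other KLF genes is KLF8, which passed the filter only through treated libraries. The coactivator and FOXO genes all lie right of 0, and all genes of MEK and ERK output but EGR1 lie left of 0. The target lists were not split by whether the factor activates or represses the gene, so their bars give no direction of its action.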

How the data were processed

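Values are of mRNA-seq of HT29 cells. The authors used Trim Galore 0.5.0 for trimming and HISAT2 2.1.0 for mapping to GRCh38, and deposited log2 values of the reads of each gene, which SeqMonk had normalized by library total. The library kit was directional. Whether counting for this table used strand, and the annotation release, are not given in the sources used here, and labels and methods name different growth media. 0 value columns were set aside. Values of 100% of genes with reads gave back whole numbers (within 0.01 reads or 0.01%), with genes at 0 standing at 0.9 reads, and set the depth of 12696860 to 23916160 reads on genes, which covers counting error only. 99.3% of identifiers were found in GENCODE 44.

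Genes with a mean log2 of at least 4.58 (1 RPM) were fitted by limma-trend (limma 3.58.1, R 4.3.3) with 1 coefficient per group and 5 comparisons, each adjusted over 14219 genes at 0.05. The design allowed for other units and its log2 part was used. Tables and figures were made in Python 3.11.15 (pandas 2.3.3, matplotlib 3.10.9, scipy 1.17.1, numpy 2.4.6). On simulated reads of 13716 genes for the CCNB1-negative response, the fit found 95% of 2-fold and 100% of 4-fold changes with 5.8% false calls. With nothing planted the untreated comparison gave 0 calls. The simulation changed few genes, used a common spread from untreated CCNB1-negative libraries and had no shift of whole libraries. In the data 74.1% of genes were called in that response, so these rates need not hold for it. The KLF genes, lists and rules were chosen with earlier results of these data known. All 10 KLF genes are named, and of each list at most 3 called genes with the largest change. The values of 1 listed gene are not reported here. Replicates differed by more than sampling noise (chi-square per gene 15.6 to 30.2). Alternatives were the filter, normalization, pseudocount, threshold, a 2-fold requirement, blocks, fewer groups, voom and leaving out each library.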

Additional observations from a re-analysis of the deposited data

Results flagged for a closer look

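Of the listed genes, 4 cell cycle genes of the KLF4 and KLF5 target lists were flagged because their selumetinib responses differed between the fractions by the interaction test in limma. The response in CCNB1-positive cells exceeded that in CCNB1-negative cells by 2.99 on the log2 scale for CCNB1, the gene of the sort marker, by 3.14 for CDK1, by 3.01 for BIRC5 and by 2.17 for CCNE1. No KLF gene was among them.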

How the results depend on the processing

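Of the 12 calls of a KLF gene under selumetinib, none changed direction in the alternatives run, and KLF2, KLF6 and KLF13 in both fractions and KLF3 in CCNB1-negative cells kept an adjusted p under 0.05 in all that tested them (KLF2 and KLF11 fell below a 10 RPM filter). Requiring 2-fold left 3 KLF genes in each fraction. Leaving out 1 library gave 5 to 6 calls in CCNB1-negative cells and 3 to 6 in CCNB1-positive ones, the 3 being KLF2, KLF6 and KLF13, left without replicate 1 of either CCNB1-positive group. Between fractions it gave 0 to 0 in untreated, 0 to 1 in treated cells and 0 to 0 for the difference of responses. KLF10 in CCNB1-positive cells was also lost with no filter (adjusted p = 0.064) and a pseudocount of 0.1 RPM (0.13), KLF11 in CCNB1-negative cells with the pseudocount (0.055), KLF4 in CCNB1-negative cells was called as higher with it (0.041), and KLF5 in CCNB1-negative cells was called as lower with median-of-ratios scaling (0.044).

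Values that changed sign were, with quantile normalization, the selumetinib responses of KLF5, at 0.16 (CCNB1-negative) and 0.39 (CCNB1-positive), and of KLF11 in CCNB1-positive cells, at -0.55, and KLF2 at 0.075 and KLF10 at 0.019 between untreated fractions, with median-of-ratios scaling KLF10 at 0.056 there, and KLF5 in CCNB1-positive cells at 0.064 with voom and 0.063 with the pseudocount. When 1 library was left out, untreated fraction differences ran from -0.56 to 0.25 for KLF2 and -0.16 to 0.16 for KLF10, treated ones from -0.41 to 0.045 for KLF4, -0.0072 to 0.15 for KLF5 and -0.0028 to 0.58 for KLF13, differences of responses from -0.84 to 0.027 for KLF2, -0.11 to 0.057 for KLF3 and -0.45 to 0.13 for KLF13, and the KLF11 response in CCNB1-positive cells from -0.090 to 0.46. The cause was not tested.

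Same-numbered libraries deviated together within a treatment (r = 0.35 untreated, 0.43 treated) and not across treatments (-0.09 to 0.08), and nothing in the labels says that a number marks a shared culture. A block for each pair of fractions gave 4 KLF calls between untreated fractions (KLF4, KLF6, KLF11, KLF13), where genes called rose from 408 to 1923, 1 between treated fractions (KLF13) from 3077 to 6671, and 1 in the difference of responses (KLF11) from 758 to 3850. The replicate number as a block over all libraries left the KLF counts at 6, 6, 0, 0 and 0.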
